A study of Mus musculus with 25 samples.

Results

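The comparison described here set 3 RNA-seq libraries of tumour-infiltrating CD8+ T cells lacking Prdm1 (the Prdm1 cKO group, a conditional knockout) against 7 wild-type libraries, 10 of the 25 libraries of the study. The members were taken from the columns of the deposited expression table: the Prdm1 cKO columns A5, A6 and A9, and the wild-type columns that stand beside them, A3, A4, A7, A8, A10, A11 and A12. All 10 came from C57BL/6 mice bearing B16F10, a transplantable pigmented mouse melanoma line, and the CD8+ T cells were isolated from the tumour. The rest of the study holds 9 other wild-type libraries, 3 of c-Maf cKO cells and 3 of Prdm1/c-Maf cDKO cells, in which both genes were deleted. RNA of a bulk T cell lysate was made into libraries with an adapted SMART-Seq 2 protocol, a full-length cDNA method for small inputs. The labels give neither the Cre line that deletes Prdm1 nor the deleted exons, the age of the mice or the day of isolation. They also do not say whether each library came from its own mouse, so the p-values measure the spread between these libraries, which may be technical.

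Prdm1 encodes Blimp-1, a zinc finger protein that mostly represses transcription. In plasma cells it drives terminal differentiation. In CD8+ T cells it is known from infection models for promoting short-lived effector cells that carry granzymes, for restraining memory and stem-like genes, and for its part in the inhibitory receptor programme of exhausted cells. Cytotoxic T cells kill with granules that hold perforin, which opens the target membrane, and granzymes, serine proteases that trigger death inside the target. The serpin Serpinb9 inhibits granzyme B and protects cells from it.

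Values below are the authors' normalised expression signal, whose exact unit is not stated. They are compared between libraries for 1 gene at a time and not between genes. A gene was tested where its value was at least 1 in 3 or more of the 10 libraries, which 11480 of 23366 genes met. Fold changes are differences of mean log2(value + 1), Prdm1 cKO minus wild type, with the standard error (SE) of the fit. On this scale the change of a low gene is understated. A gene is called where limma's test, a moderated linear model fitted across all tested genes, gave a Benjamini-Hochberg adjusted p under 0.05. Rose and fell are used of called genes only. The log2 fold changes of all tested genes had a median of -0.02 and quartiles of -0.25 and 0.22.

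The 10 libraries were alike in their overall measures. The sum of the deposited values ran from 417285 to 464903 over the 10 libraries, and 14121 to 15161 genes had a value above 0. Pearson correlations of log2(value + 1) across genes were 0.92 to 0.93 among the Prdm1 cKO libraries, 0.92 to 0.96 among the wild-type ones and 0.86 to 0.94 between the groups. The table gives no read counts, so the depth behind each value is unknown. No pair of libraries held identical values.

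CD8+ T cell markers were present throughout. Cd3e, a subunit of the T cell receptor complex, was between 354.40 and 559.27 in the wild type and between 310.48 and 397.20 in the Prdm1 cKO. Cd8a, the CD8 alpha chain, was between 96.12 and 208.36 in the wild type and between 96.09 and 126.33 in the Prdm1 cKO. Cd4 was listed at 0 in the 3 Prdm1 cKO libraries and reached at most 0.71 in the wild type. Foxp3, the factor of regulatory T cells, reached 4.34 in the wild type and at most 0.15 in the Prdm1 cKO. Ncr1, an NK cell receptor, reached at most 0.93 in any of the 10 libraries. The mean log2 value of 6 NK cell markers was 4.54 to 5.34 in the wild type and 3.99 to 4.35 in the Prdm1 cKO. Of these 6, 2 were called lower (0.209% of all genes were), Gzma and Nkg7, which cytotoxic T cells also express. The list's median log2 fold change was -0.98.

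Macrophage transcripts stood beside the T cell transcripts in both groups and were more abundant in the Prdm1 cKO. The groups did not overlap for 3 of 61 tested macrophage and monocyte markers, all higher, against 1.68% of all genes. Of the 61, 57 had a higher mean log2 value in the Prdm1 cKO, with a median log2 fold change of 1.56. That median was 0.84 without A11 and A12, and 0.84 with a pseudocount of 10. The summed deposited signal of the 61 markers ran from 598 to 5147 in the wild type and from 3278 to 9501 in the Prdm1 cKO. Wild-type libraries A11 and A12 were lowest, at 598 and 641, and Prdm1 cKO library A9 was highest. Lyz2, the lysozyme of macrophages, was 9.13 at its lowest, 314.81 at the median and 962.84 at its highest in the wild type, against 643.13 in A5, 731.40 in A6 and 1735.61 in A9. Its 2 lowest wild-type values again belonged to A11 and A12. Csf1r, the receptor for the macrophage growth factor, was 0.42 in A11, 0.32 in A12 and between 12.98 and 39.80 in the other wild-type libraries, and 31.36, 19.30 and 62.64 in A5, A6 and A9. No defining macrophage marker was at 0 in a Prdm1 cKO library, while Fcgr1 was at 0 in A11 and Emr1 and Mrc1 were at 0 in A12. Fewer cells of a type and less RNA per cell cannot be told apart in such bulk libraries.

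Other cell types moved less evenly. The mean log2 value of 18 dendritic cell and MHC class II markers ran from 2.25 to 4.62 in the wild type and from 3.81 to 4.93 in the Prdm1 cKO, and that of 14 melanoma pigment markers from 3.33 to 5.45 and from 4.37 to 4.95. Erythroid markers were highest in A9, at 6.53, against 1.71 to 5.52 in the wild type. B and plasma cell markers were at 1.88 to 2.10 in the Prdm1 cKO and 0.69 to 1.90 in the wild type. The median fold change of the 11 CD8 T cell markers was -0.22, and it was 0.07 with CD3 scaling and 0.06 with the macrophage score as a covariate. The part of these cells in each result below was not tested, except where a value with the macrophage score as a covariate or without A11 and A12 is given.

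**Figure D1:**
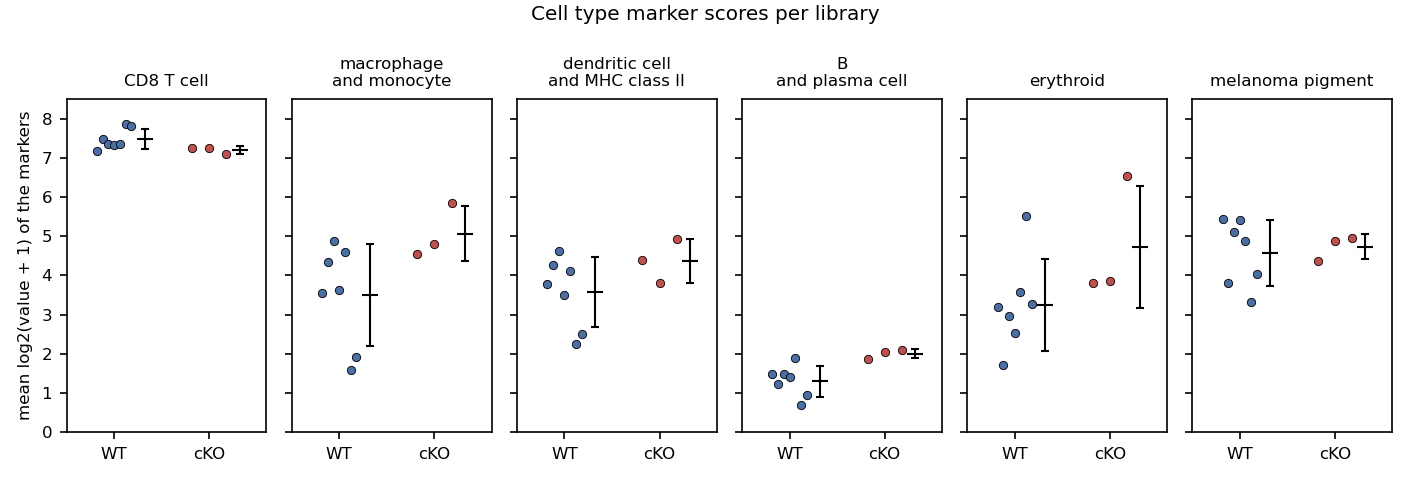
Mean log2(value + 1) of the tested markers of 6 cell types in each library (points; horizontal bars with whiskers: mean and SD; 7 wild-type and 3 Prdm1 cKO libraries). Wild-type libraries A11 and A12 hold the 2 lowest macrophage values, 1.59 and 1.92, while the Prdm1 cKO libraries lie between 4.54 and 5.85.

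To set T cell genes apart from macrophage transcripts, the macrophage markers and every gene whose log2 value followed their mean across the 9 other wild-type libraries (Pearson r of at least 0.7) were put in a separate class, 283 genes or 2.47% of those tested. The correlation was taken outside the 10 libraries compared, but the marker list was drawn up with earlier results of these data known. Of the 61 markers, 36 reached that r.

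Prdm1 itself was low in all 3 Prdm1 cKO libraries. Its value was 9.38 at the lowest, 13.85 at the median and 18.81 at the highest in the wild type, and 4.71 in A5, 0.41 in A6 and 3.66 in A9. The groups did not overlap, and A6 had the lowest residual. The mean was 13.1 ± 3.33 (SD, n = 7) in the wild type and 2.93 ± 2.24 (SD, n = 3) in the Prdm1 cKO, or 22.3% of the wild-type mean. The exact two-sided permutation test over the 120 splits gave p = 0.00833, the smallest it can give, and against all 16 wild-type libraries p = 0.00103. In limma's fit the log2 fold change was -2.04 ± 0.36 (SE), adjusted p = 0.0331. A gene-level value also counts reads from exons that a deletion leaves in place, so the residual signal cannot be read as remaining protein.

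Of the 11480 genes, 33 were called (0.287%), 9 higher (0.0784%) and 24 lower (0.209%) in the Prdm1 cKO. For each of the 33 the 3 Prdm1 cKO values lay outside the range of the 7 wild-type values. Values above all 7 wild-type libraries were found for 193 genes (1.68%) and values below all 7 for 276 genes (2.4%). Against all 16 wild-type libraries of the study, 8 of the 9 higher genes (0.845% of all genes lay above) and 16 of the 24 lower genes (0.871% lay below) were outside the range. Of the 33, Retnla alone belonged to the macrophage class, through the marker list and not its correlation (r = 0.32). That leaves 8 higher and 24 lower genes outside it. The 8 include Fcrls, a gene of myeloid cells with r = 0.57, below the limit of 0.7. A place outside the class therefore does not make a gene a T cell gene. With the macrophage score as a covariate 1 gene was called higher and 5 lower, all among the 33: Retnla, and Serpinb9b, Serpinb9, Gzma, Gzme and 1 clone-named gene. Without A11 and A12, an alternative chosen after seeing the data, 2 were called higher and 7 lower, also all among the 33, with Ifitm1, Gzmb and Nkg7 added to those 6. Leaving out A6 gave 5 higher and 4 lower genes, leaving out A5 gave 21 and 49, and leaving out A9 gave 2 and 17. Scaling each library to its CD3 genes moved the split to 10 higher and 15 lower.

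**Figure D2:**
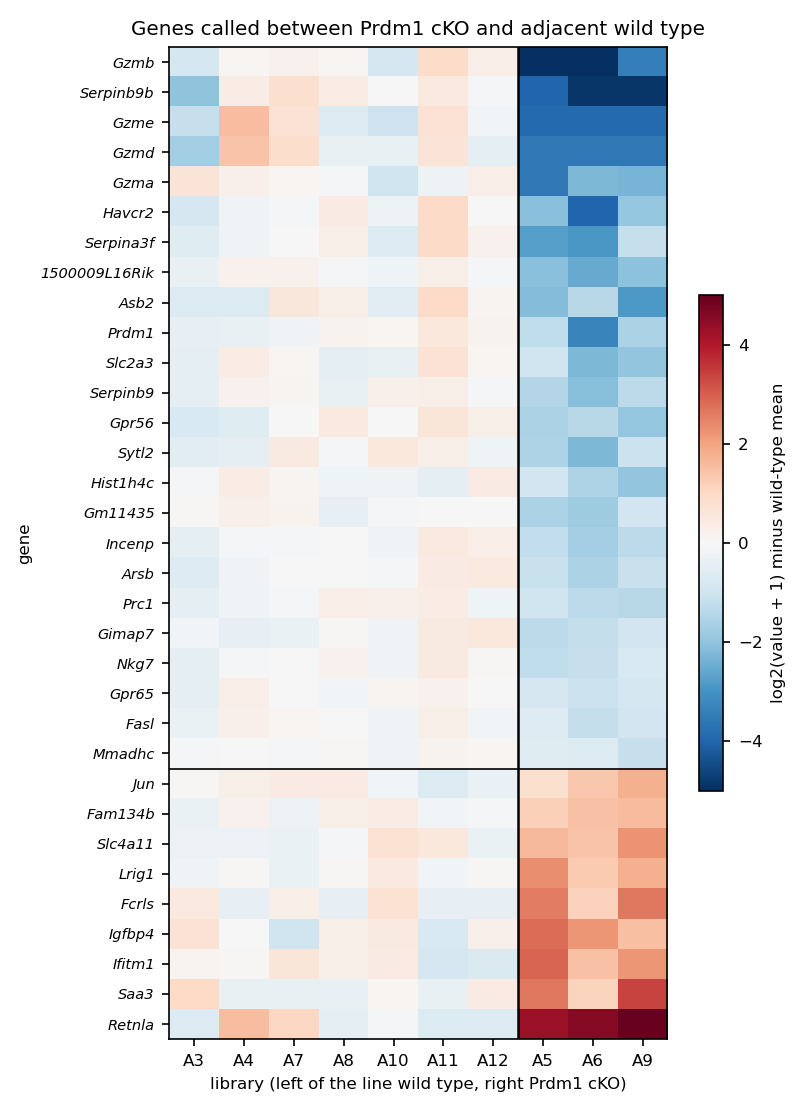
Log2(value + 1) of the 33 called genes in each of the 10 libraries, minus the wild-type mean of that gene (colour scale; blue lower, red higher; differences beyond 5 take the end colours). Columns left of the vertical line are the 7 wild-type libraries and those right of it the 3 Prdm1 cKO libraries; the 24 genes above the horizontal line fell and the 9 below it rose.

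The clearest group among the genes that fell was the cytotoxic granule and its protection. Of 20 tested cytotoxic effector genes, 8 fell and none rose, against 0.209% and 0.0784% of all genes. With the macrophage score as a covariate 4 of them were called lower, and without A6 3 were. Of all genes, 5 and 4 were called lower in these fits. Those 8 were Gzma, Gzmb, Gzmd, Gzme, Serpinb9, Serpinb9b, Nkg7 and Fasl. The list's median log2 fold change was -1.48 against -0.02 for all genes, and -1.22 over the 17 members that were not listed at 0 in every Prdm1 cKO library. The groups did not overlap for 11 members below and 1 above, against 2.4% and 1.68% of all genes. The list was drawn up with earlier results of these data known, and its count is no independent evidence of its direction.

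Granzyme B (Gzmb), the protease that cleaves caspases in target cells, had the most negative log2 fold change on the log2(value + 1) scale; as a share of the wild-type mean, Serpinb9b, Gzmd and Gzme were lower still. Its value was 190.98 at the lowest, 377.97 at the median and 662.78 at the highest in the wild type, and 5.68 in A5, 7.18 in A6 and 32.17 in A9. All 3 Prdm1 cKO libraries were far below the lowest wild-type library, and A9 kept the most. The Prdm1 cKO mean of 15 ± 14.9 (SD, n = 3) was 3.97% of the wild-type mean of 378 ± 160 (SD, n = 7), a log2 fold change of -4.84 ± 0.54 (SE) with limma's adjusted p = 0.0134. With the macrophage score as a covariate the fold change was -4.69 and limma's adjusted p was 0.102.

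Granzyme A (Gzma), a tryptase of the same granules, was 29.69 at the lowest, 64.39 at the median and 95.10 at the highest in the wild type, and 4.2, 12.03 and 11.44 in A5, A6 and A9. It fell by 2.71 ± 0.34 (SE) on the log2 scale, with limma's adjusted p = 0.00666. The call held in all 23 alternatives run, among them the macrophage covariate, where the fold change was -2.69.

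Gzmd and Gzme, 2 of the granzymes encoded in the same cluster as Gzmb, were listed at 0 in all 3 Prdm1 cKO libraries. In the wild type Gzmd ran from 2.57 to 30.99 with a median of 8.04, and Gzme from 5.64 to 42.43 with a median of 12.63. Limma's adjusted p was 0.0158 for Gzmd and 0.00791 for Gzme. No fold change is given for values listed at 0. Among all 16 wild-type libraries some were also at 0 for both genes, so a value of 0 was not particular to the Prdm1 cKO. The granzymes of this cluster are near-identical in part: of all 50-base windows of the GENCODE M21 transcripts, 12% of those of Gzmd also occur in Gzme and 12.7% of those of Gzme also occur in Gzmd, so the split of reads between them is uncertain.

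Prf1, Gzmc and Gzmk had values of the same sign without passing the test. Prf1, which encodes perforin, was 41.64 at the lowest, 154.80 at the median and 297.58 at the highest in the wild type and 11.51, 21.18 and 18.29 in A5, A6 and A9. Its groups did not overlap, but its fold change of -2.82 ± 0.55 (SE) had limma's adjusted p = 0.11. Gzmc, picked out after its values were seen, ran from 26.63 to 228.24 in the wild type and was 8.61, 0 and 5.32 in the Prdm1 cKO, adjusted p = 0.118 by limma. Gzmk, the granzyme of less differentiated effector cells, ran from 39.24 to 129.74 in the wild type and from 15.66 to 51.10 in the Prdm1 cKO, with overlapping groups. Gzmm stood apart from the other granzymes. It was 0.73 to 8.57 in the wild type and 10.66, 14.46 and 27.69 in A5, A6 and A9, above all 7 adjacent wild-type values, with a log2 fold change of 1.79 and limma's adjusted p = 0.162. Across all 16 wild-type libraries Gzmm reached 25.21, so the groups overlapped there.

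Serpinb9 and its relative Serpinb9b fell as well. Serpinb9b was 6.22 at the lowest, 36.35 at the median and 49.26 at the highest in the wild type, and 0.83 in A5 and 0 in both A6 and A9. Its log2 fold change was -4.56 ± 0.49 (SE), limma's adjusted p = 0.00294, and the call held in all 23 alternatives. Serpinb9, its better known relative, was 36.01 to 61.25 in the wild type with a median of 55.39, and 17.68, 10.78 and 19.35 in the Prdm1 cKO. It fell by 1.63 ± 0.21 (SE), limma's adjusted p = 0.00472. Serpina3f, a secreted-type serpin of another clade, was 9.03 to 30.41 in the wild type and 1.43, 1.16 and 6.29 in the Prdm1 cKO, a log2 fold change of -2.27 ± 0.40 (SE) with limma's adjusted p = 0.0331.

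2 further genes of killing fell by smaller amounts. Nkg7, a granule membrane protein of cytotoxic cells, was 671.93 to 1243.26 in the wild type with a median of 891.93, and 374.13, 413.14 and 543.77 in A5, A6 and A9, or 47.9% of the wild-type mean. Fasl, the ligand of the Fas death receptor, was 25.01 to 39.02 in the wild type with a median of 32.45, and 19.67, 13.37 and 16.05 in the Prdm1 cKO, or 51.1%. Limma's adjusted p was 0.0158 for Nkg7 and 0.0452 for Fasl.

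**Figure D3:**
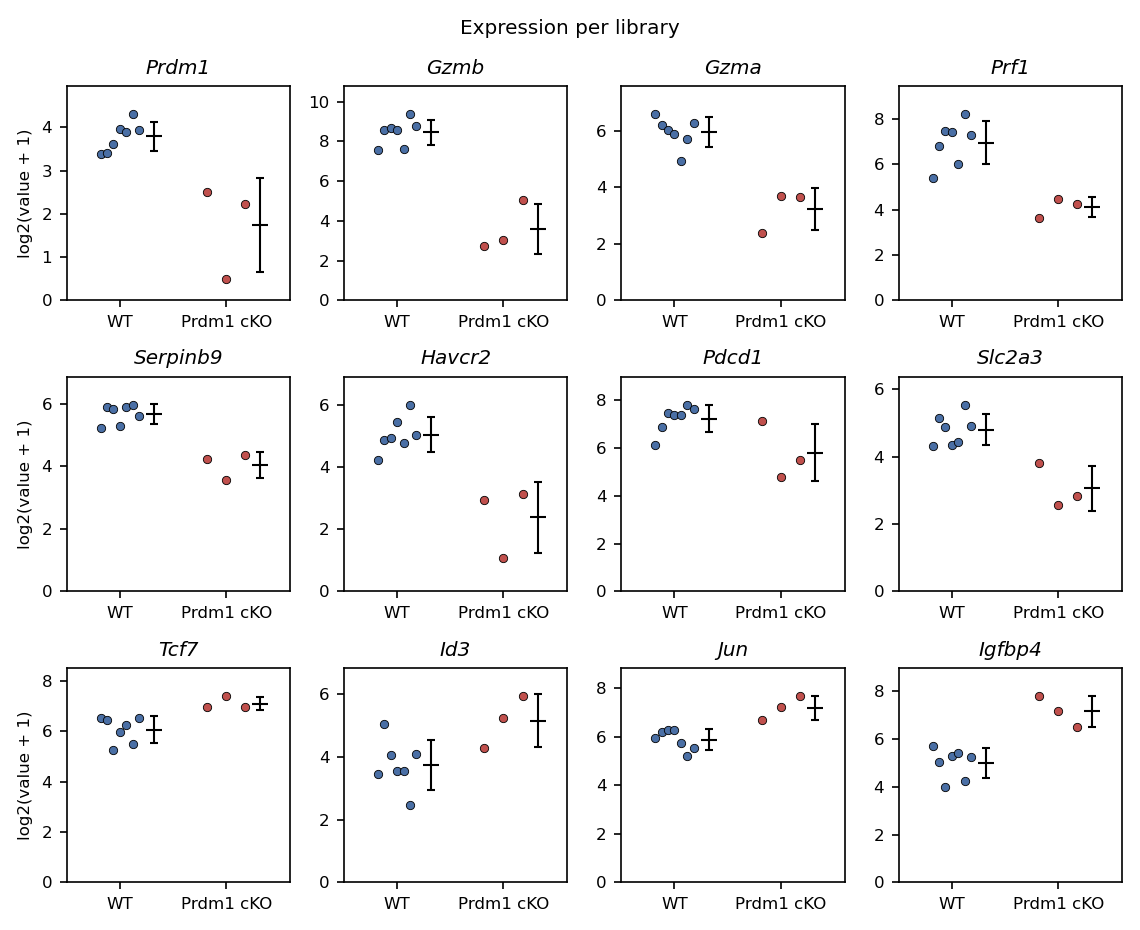
Log2(value + 1) of 12 genes in each library (points; horizontal bars with whiskers: mean and SD; 7 wild-type and 3 Prdm1 cKO libraries; each vertical axis starts at 0). The groups do not overlap for Prdm1, Gzmb, Gzma, Prf1, Serpinb9, Havcr2, Slc2a3, Tcf7, Jun and Igfbp4, and they overlap for Pdcd1, where A5 lies within the wild type, and for Id3.

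Promoters of called genes that moved together are shown for the letters they share. RefSeq windows from 250 bases before to 50 after the transcription start (build GRCm38.p6) were found for 28 of the 33 called genes and for 9227 of the 11480 tested genes. 4 short motifs were searched on both strands, with N for any base. They were a T-box core (AGGTGTNA), a Runx site (TGTGGTT), an AP-1 site (TGANTCA) and AGNGAAAG. The last is a loose Blimp-1-like pattern, called the Blimp-1 core here for short. The Blimp-1 core was in 8.63% of all 32851 windows and in at least 1 window of 9.2% of the tested genes, in 0 of 8 genes that rose and in 5 of 20 genes that fell. Among the 5 were Serpinb9, Serpinb9b, Gzma and Serpina3f. The base at N was A in Serpinb9b and Serpina3f, G in Gzma, and T and A in the 2 overlapping copies of Serpinb9. In the 3 sequences below, 5′ to 3′ on the gene's strand, capitals mark the Blimp-1 core or its reverse complement. Serpinb9 (chr13:33004291-33004590, plus strand) holds 2 overlapping copies, Serpinb9b (chr13:33027164-33027463, plus strand) 1 copy and Gzma (chr13:113100932-113101231, minus strand) 1 copy.
Serpinb9: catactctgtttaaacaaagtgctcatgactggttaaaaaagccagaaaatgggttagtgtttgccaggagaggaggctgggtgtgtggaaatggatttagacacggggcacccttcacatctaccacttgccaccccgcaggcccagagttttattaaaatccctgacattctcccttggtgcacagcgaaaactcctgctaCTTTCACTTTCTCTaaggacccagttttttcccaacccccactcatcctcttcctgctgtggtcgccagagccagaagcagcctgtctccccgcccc
Serpinb9b: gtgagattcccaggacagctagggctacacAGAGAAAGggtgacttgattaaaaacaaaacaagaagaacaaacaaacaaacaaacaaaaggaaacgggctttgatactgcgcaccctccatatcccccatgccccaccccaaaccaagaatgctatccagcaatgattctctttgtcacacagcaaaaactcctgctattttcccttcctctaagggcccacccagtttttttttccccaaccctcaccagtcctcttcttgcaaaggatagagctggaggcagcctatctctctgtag
Gzma: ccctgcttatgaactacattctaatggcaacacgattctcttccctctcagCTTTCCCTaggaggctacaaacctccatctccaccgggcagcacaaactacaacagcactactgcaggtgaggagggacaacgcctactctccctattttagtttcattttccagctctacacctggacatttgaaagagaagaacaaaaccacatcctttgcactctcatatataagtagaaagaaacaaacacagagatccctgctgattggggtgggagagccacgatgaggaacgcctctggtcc

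The AP-1 site was in 7.81% of all windows (6.34% of tested genes), in 1 of 8 genes that rose and in 5 of 20 that fell, among them Gzmb, Havcr2 and Prdm1. The Runx site was in 5.27% of all windows (4.74% of tested genes), in 2 of 8 genes that rose and in 7 of 20 that fell, and the T-box core in 3.03% of all windows and in 1 of 20 genes that fell. Gzmb (chr14:56262285-56262584, minus strand) and Havcr2 (chr11:46454681-46454980, plus strand) held no Blimp-1 core in their windows; capitals mark the AP-1 site. A match describes letters in this window and is not a binding site.
Gzmb: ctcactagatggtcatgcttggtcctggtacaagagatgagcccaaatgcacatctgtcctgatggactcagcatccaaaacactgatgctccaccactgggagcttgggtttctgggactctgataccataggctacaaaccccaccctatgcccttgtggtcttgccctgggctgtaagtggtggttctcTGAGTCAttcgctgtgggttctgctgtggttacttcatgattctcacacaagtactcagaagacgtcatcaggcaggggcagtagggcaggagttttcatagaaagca
Havcr2: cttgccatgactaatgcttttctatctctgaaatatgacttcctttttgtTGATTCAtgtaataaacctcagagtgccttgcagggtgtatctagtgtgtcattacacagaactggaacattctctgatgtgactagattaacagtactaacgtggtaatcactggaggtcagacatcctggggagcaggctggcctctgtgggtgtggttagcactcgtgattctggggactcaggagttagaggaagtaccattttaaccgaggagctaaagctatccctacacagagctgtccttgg

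Of 17 tested co-inhibitory receptor genes, 1 fell and none rose, against 0.209% and 0.0784% of all genes. At limma's unadjusted p under 0.05, 2 were higher and 6 lower, against 5.44% and 7.74% of all genes. The median log2 fold change was 0.02, with members on both sides, and its sign depended on the setting: it was -0.94 over the 11 genes that reach a minimum of 10, -0.29 without A9, -0.27 with the macrophage covariate and 0.26 with CD3 scaling. Without A5, 4 of the 17 were called lower, among 49 of all genes. The gene that fell was Havcr2, which encodes Tim-3, a receptor of terminally exhausted T cells. Its value was 17.74 at the lowest, 29.92 at the median and 63.24 at the highest in the wild type, and 6.78, 1.11 and 7.76 in A5, A6 and A9. All 3 Prdm1 cKO values were below every wild-type value, a log2 fold change of -2.66 ± 0.44 (SE) with limma's adjusted p = 0.0345. The value was -2.42 with the macrophage score as a covariate and -2.48 without A11 and A12, and neither kept the call (limma's adjusted p = 0.262 and 0.0753).

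For the best known receptors 1 Prdm1 cKO library differed from the other 2. Pdcd1, which encodes PD-1, was 68.31 at the lowest, 165.20 at the median and 223.47 at the highest in the wild type, and 138.88 in A5 but 26.45 in A6 and 45.05 in A9. Lag3, an MHC class II-binding receptor, was 52.55 to 140.44 in the wild type and 87.17, 19.24 and 8.88 in A5, A6 and A9. Tigit was 261.13 in A5 and 88.28 and 137.30 in A6 and A9, against 116.62 to 295.35 in the wild type, and Ctla4 was 69.31 in A5 and 19.97 and 40.20 in A6 and A9, against 49.42 to 103.26. A5 lay inside the wild-type range for all 4, and A9 did so for Tigit. Their log2 fold changes were -1.43 for Pdcd1, -1.83 for Lag3, -0.57 for Tigit and -0.94 for Ctla4, with limma's adjusted p = 0.281, 0.258, 0.475 and 0.238.

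Of the 17 chemokine, 25 cytokine and 8 adenosine and ATP pathway genes tested, limma called none. At an unadjusted p under 0.05 it placed 2, 3 and 3 of them higher and 6, 8 and 1 lower, against 5.44% higher and 7.74% lower of all genes. Cxcr6, a receptor of tissue-homing effector cells, came nearest. It was 59.91 to 223.32 in the wild type with a median of 131.43, and 29.43, 10.95 and 38.37 in the Prdm1 cKO, without overlap, at -2.34 ± 0.42 (SE) with limma's adjusted p = 0.0721. Ccl4, an inflammatory chemokine, was also below all 7 wild-type values (84.36 to 407.52 against 44.57, 70.46 and 77.17), and Ccl3 overlapped (55.14 to 275.58 against 32.08, 34.71 and 85.70). Ifng, the interferon of cytotoxic cells, was 18.81 to 76.06 in the wild type and 15.20, 10.27 and 14.41 in the Prdm1 cKO, log2 fold change -1.50 and limma's adjusted p = 0.0984. Tnf had the other sign, at 6.93 to 30.39 against 25.95, 24.43 and 42.48, and overlapped. The cytokine list had a median of -0.14. That of the chemokine and receptor list was 0.12, and it was negative with a minimum of 10 (-0.23), with all 25 libraries (-0.06), and without A5 (-0.24), A8 (-0.07), A9 (-0.09) or A10 (-0.06). Il2 and Il10 were low in both groups. Il10 reached at most 6.48 and Il2 at most 2.11 in any of the 10 libraries. The 9 other wild-type libraries placed Il10 in the macrophage class (r = 0.88). Across the 7 adjacent wild-type libraries it did not follow the macrophage score (r = -0.25). Of the enzymes that make adenosine, Entpd1 had a log2 fold change of -1.27 and Nt5e of 0.74, limma's adjusted p = 0.187 and 0.32.

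Genes of naive, memory and stem-like T cells were mostly higher in the Prdm1 cKO, but none was called. Of 26 tested members 22 had a positive fold change, against 47.3% of all genes, and the list's median was 0.90 (1.17 with CD3 scaling and 0.76 with the macrophage covariate). The groups did not overlap for 5 of the 26, all higher (against 1.68% of all genes): Tcf7, Bcl6, Bach2, Nsg2 and Dapl1. The last 3 are named only because they complete this count. At an unadjusted p under 0.05, 12 of the 26 were higher and 0 lower, against 5.44% and 7.74% of all genes.

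Tcf7, which encodes TCF-1, the factor of stem-like CD8+ T cells, was 36.95 at the lowest, 73.81 at the median and 91.27 at the highest in the wild type, and 121.94, 167.41 and 121.89 in A5, A6 and A9. The Prdm1 cKO values were also above all 16 wild-type libraries, with a mean at 198% of the adjacent wild type. Its log2 fold change of 1.03 ± 0.27 (SE) had limma's adjusted p = 0.152. Bcl6, the repressor known as an antagonist of Blimp-1, was 2.06 to 12.31 in the wild type and 22.11, 16.90 and 13.77 in the Prdm1 cKO, log2 fold change 1.38 and limma's adjusted p = 0.218. Id3, Il7r, Lef1 and Ccr7, genes of memory cells and of their recirculation, had log2 fold changes of 1.41, 1.09, 0.94 and 0.86 and overlapped the wild type. Among the called genes, Igfbp4, an insulin-like growth factor binding protein, was 15.03 at the lowest, 36.61 at the median and 51.60 at the highest in the wild type and 219.93, 143.68 and 88.38 in A5, A6 and A9. It rose by 2.16 ± 0.38 (SE), limma's adjusted p = 0.0452, with A5 highest.

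Transcription factors of effector and exhausted cells were spread around 0. None of 23 was called by limma (4 higher and 5 lower at an unadjusted p under 0.05, against 5.44% and 7.74% of all genes), and their median was -0.05 (0.24 with CD3 scaling, which moved the median of all genes to 0.22). Tbx21, which encodes T-bet, was 31.87 to 63.89 in the wild type and 29.54, 16.55 and 30.83 in the Prdm1 cKO, below all 7, at -0.76 ± 0.22 (SE) with limma's adjusted p = 0.176. Id2 had a log2 fold change of -0.71 and overlapped the wild type in A9. Eomes was 5.30 to 14.40 in the wild type and 4.07 to 11.82 in the Prdm1 cKO, a fold change of -0.12 whose sign depends on the setting. Tox was 47.96 in A5, within the wild-type range of 15.59 to 65.66, and 15.49 and 12.88 in A6 and A9. Maf, the other factor that the study deleted, was below the minimum and was not tested: it was 0.13 to 0.95 in the wild type and 0.41 to 1.09 in the Prdm1 cKO.

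AP-1 and immediate early genes had positive fold changes in all 18 tested members under the reported fit, with a median of 0.64. Only Jun, a subunit of the AP-1 dimer, was called (0.0784% of all genes were called higher). It was 35.76 at the lowest, 60.35 at the median and 77.10 at the highest in the wild type and 100.84, 148.50 and 202.85 in A5, A6 and A9. Every Prdm1 cKO value was above all 16 wild-type libraries, a rise of 1.31 ± 0.25 (SE) with limma's adjusted p = 0.0452. Across the 7 wild-type libraries Jun followed the macrophage score (r = 0.80), with its 2 lowest values in A11 and A12, and across the 9 others r was 0.21. With the macrophage covariate its fold change was 0.85 (limma's adjusted p = 0.315) and the median of the 18 genes 0.29. Myc, another immediate early gene, was 38.64 to 59.13 in the wild type and 47.87 to 66.81 in the Prdm1 cKO.

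Proliferation genes were lower on balance. No gene of the S phase list (25 tested) or of the list for G2 and M (24 tested) passed the test, yet 22 of 25 and 24 of 24 had a negative fold change, against 52.7% of all genes, and the medians were -0.60 and -0.63. With CD3 scaling these medians were -0.32 and -0.36, while that of all genes was 0.22. At an unadjusted p under 0.05 limma placed 15 and 11 of them lower and 0 higher, against 7.74% and 5.44% of all genes. With the macrophage covariate 5 and 4 were lower at that threshold, with medians of -0.33 and -0.39, and with CD3 scaling 5 and 5. Of all 11480 genes, 469 were lower with the covariate and 236 with CD3 scaling, against 888 in the reported fit. The 11 of G2 and M became 20 without A4 and 6 without A6, where 992 and 634 of all genes were lower. The groups did not overlap for 3 S phase genes and 2 genes of G2 and M, all lower, against 2.4% of all genes. 3 called genes outside these lists belong to the cell cycle. Incenp, a subunit of the chromosomal passenger complex, was 13.34 to 26.13 in the wild type with a median of 17.26, and 7.32, 5 and 6.85 in the Prdm1 cKO, a fall of 1.40 ± 0.22 (SE) with limma's adjusted p = 0.0158. Prc1, which bundles the microtubules of the spindle midzone, was 14.64 to 27.20 against 9.83, 7.87 and 7.22, limma's adjusted p = 0.0296. Hist1h4c, a histone H4 gene, was 3.79 to 7.64 against 2.38, 1.29 and 0.69, limma's adjusted p = 0.0451.

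In glucose metabolism 1 of 17 genes fell, against 0.209% of all genes. Slc2a3, which encodes the glucose transporter GLUT3, was 18.94 at the lowest, 28.45 at the median and 45.45 at the highest in the wild type, and 13.04, 4.87 and 6.09 in A5, A6 and A9. The groups did not overlap, with A5 nearest to the wild type, and the log2 fold change was -1.74 ± 0.30 (SE), limma's adjusted p = 0.0315. The list's median was -0.33 (-0.04 with CD3 scaling), and 13 of 17 were negative. Cytosolic ribosomal protein genes moved little and evenly: all 60 had a positive fold change in the reported fit, with a median of 0.26 (0.08 with quantile normalisation and 0.55 with CD3 scaling). Limma called none of them, with 33 higher and 0 lower at an unadjusted p under 0.05, against 5.44% and 7.74% of all genes. Without A6 the 33 became 5 and the median 0.11, and without trend and robust fitting 6 were higher. Of all genes, 475 and 622 were higher in these fits, against 625 in the reported one. The 20 genes of the T cell receptor complex and its signalling had a median of -0.19, which CD3 scaling turned to 0.10.

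**Figure D4:**
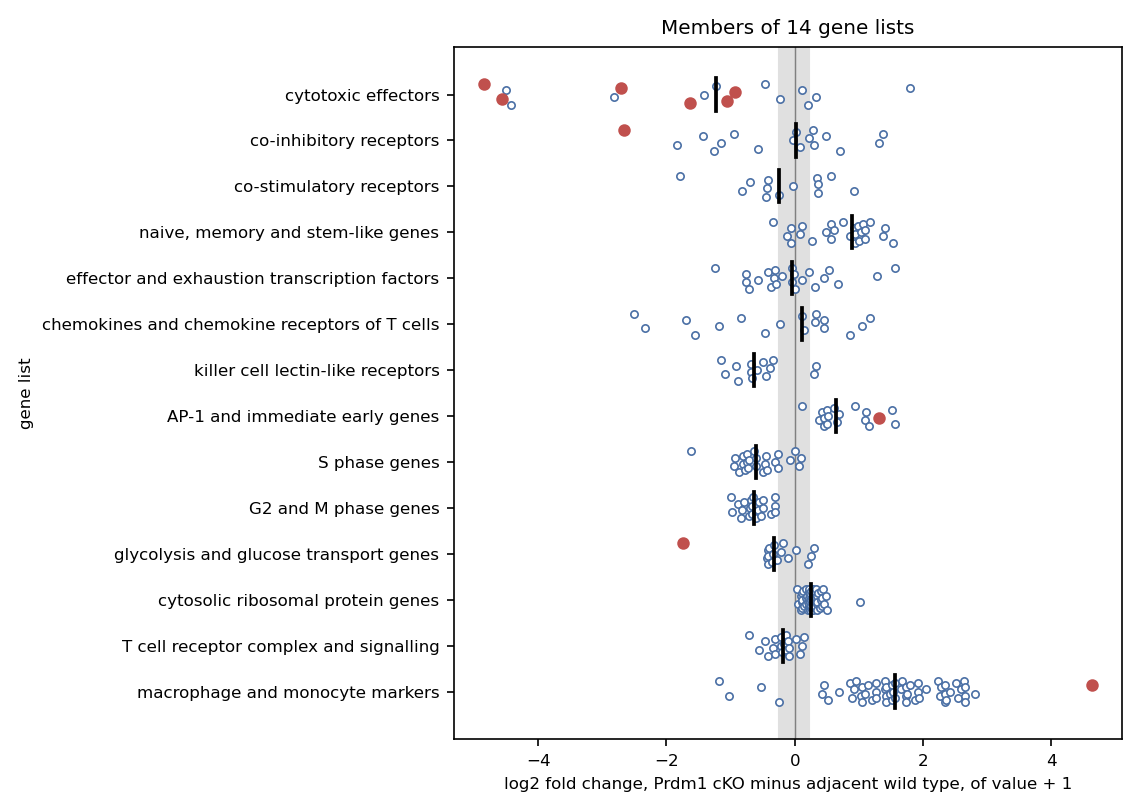
Log2 fold change of each tested member of 14 gene lists, Prdm1 cKO minus the 7 adjacent wild-type libraries (filled red: called; open blue: not called; black bar: median of the points; grey band: quartiles of all tested genes, -0.25 to 0.22). Gzmd, Gzme and Gzmg, listed at 0 in every Prdm1 cKO library, are left out, so the cytotoxic median is -1.22; the median of memory-type genes is 0.90 and the macrophage median 1.56.

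Other genes that fell had varied roles. Asb2, part of a ubiquitin ligase, was 3.74 to 13.76 in the wild type and 0.70, 1.91 and 0.04 in the Prdm1 cKO, and Gpr56, an adhesion receptor of cytotoxic cells, was 7.33 to 20.76 against 3.72, 4.46 and 2.77. Sytl2, a synaptotagmin-like protein of vesicle docking, was 7.45 to 16.52 against 3.12, 1.53 and 4.78. Their log2 fold changes were -2.15, -1.63 and -1.62. Gimap7, a small GTPase of lymphocytes, was 42.66 to 83.06 against 22.51, 24.35 and 29.04. Across the 7 wild-type libraries Gimap7 ran against the macrophage score (r = -0.95), with its 2 highest values in A11 and A12. Gpr65, a proton-sensing receptor, Arsb, a lysosomal sulfatase, and Mmadhc, of cobalamin metabolism, fell by 0.94, 1.28 and 0.81. 2 of the 24 carry clone or predicted-gene names and are only counted.

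Of the genes that rose, several were near 0 in the wild type. Lrig1, a membrane protein that dampens growth factor receptors, was 0.68 to 1.97 in the wild type and 9.81, 4.31 and 6.35 in A5, A6 and A9, a rise of 1.81 ± 0.29 (SE) with limma's adjusted p = 0.0168. Fam134b, a receptor for autophagy of the endoplasmic reticulum, was 1.93 to 3.76 against 7.46, 9.12 and 10.04. Slc4a11, a membrane transporter, was 0 to 1.11 against 2.86, 2.33 and 4.95. Ifitm1, an interferon-induced membrane protein, was 3.42 to 10.99 against 57.83, 20.70 and 34.65, a rise of 2.19 ± 0.35 (SE) with limma's adjusted p = 0.0168. Ifitm1 followed the macrophage score across the 7 wild-type libraries (r = 0.96), again with its 2 lowest values in A11 and A12, while r was -0.33 across the 9 others. Saa3, an acute phase protein, and Fcrls, an Fc receptor-like gene of myeloid cells, were at most 1.55 and 1.24 in the 7 wild-type libraries. They reached 6.95, 1.82 and 12.48, and 6.70, 1.90 and 7.12, in A5, A6 and A9. Saa3 was 68.80 in 1 of the other wild-type libraries.

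Retnla, a secreted product of alternatively activated macrophages, rose the most. It was 0 at the lowest, 0.16 at the median and 3.68 at the highest in the wild type, and 31.32, 36.94 and 49.68 in A5, A6 and A9. Its log2 fold change was 4.63 ± 0.47 (SE), limma's adjusted p = 0.000973, and 3.86 with the macrophage score as a covariate (limma's adjusted p = 0.00439). None of the 16 wild-type libraries exceeded 3.68. 7 more genes of the macrophage class had non-overlapping groups and log2 fold changes from 1.69 to 2.65 without a call: Ear2, Cfp, Pmp22, Cysltr1, Emilin2, Ctsl and Stom. Their values were highest in A9, except for Ctsl and Pmp22, which were highest in A5. Outside the class, Osm, Dpep2, Lilrb3, Sirpb1b, Ltb4r1 and Lrp1 were likewise above all 7 wild-type libraries without a call, at 1.70 to 2.16. 5 of these 6 followed the macrophage score across the 7 wild-type libraries (r of at least 0.90), and Sirpb1b did so with r = 0.66.

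A further group of libraries lacks Prdm1 and shares no control with the comparison above: 3 Prdm1/c-Maf cDKO libraries and the 5 wild-type libraries that stand beside them. In that comparison limma called 2.14% of 11058 tested genes higher and 0.94% lower. All 24 genes that fell in the Prdm1 cKO were tested there. For 23 of them the fold change was also negative, and 8 were called lower: Gzmb, Gzma, Havcr2, Serpina3f, Slc2a3, Sytl2, Gpr65 and Prdm1. Both counts include Prdm1, which is deleted in the cDKO by design and so adds no information. The share of all genes with a negative fold change in that comparison is not given here. Gzmb was 47.33, 8.49 and 12.47 in the cDKO libraries against a wild-type mean of 383, a log2 fold change of -4.19 ± 0.65 (SE) with limma's adjusted p = 0.0208. Havcr2 was 3.04, 3.65 and 2.05 against a mean of 43.9, at -3.29 ± 0.51 (SE) with limma's adjusted p = 0.0176. Serpinb9b was 0.77, 0.51 and 0 against a mean of 59.6, at -4.30 with limma's adjusted p = 0.125. Hist1h4c had the other sign, at 0.67.

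Of the 9 genes that rose in the Prdm1 cKO, 5 could be tested in the cDKO comparison. All 5 were positive and Jun was called, at 1.28 ± 0.24 (SE) with limma's adjusted p = 0.0256. Igfbp4 was 251.24, 95.27 and 97.93 against a wild-type mean of 29.4, at 2.50 with limma's adjusted p = 0.0823, and Lrig1 was at 1.58 with 0.0762. Retnla was at 0 in the 3 cDKO libraries and the 5 wild-type libraries beside them, and Fcrls reached at most 0.18 in the cDKO libraries. The cDKO cells also lack c-Maf, and the difference between both comparisons was not tested.

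**Figure D5:**
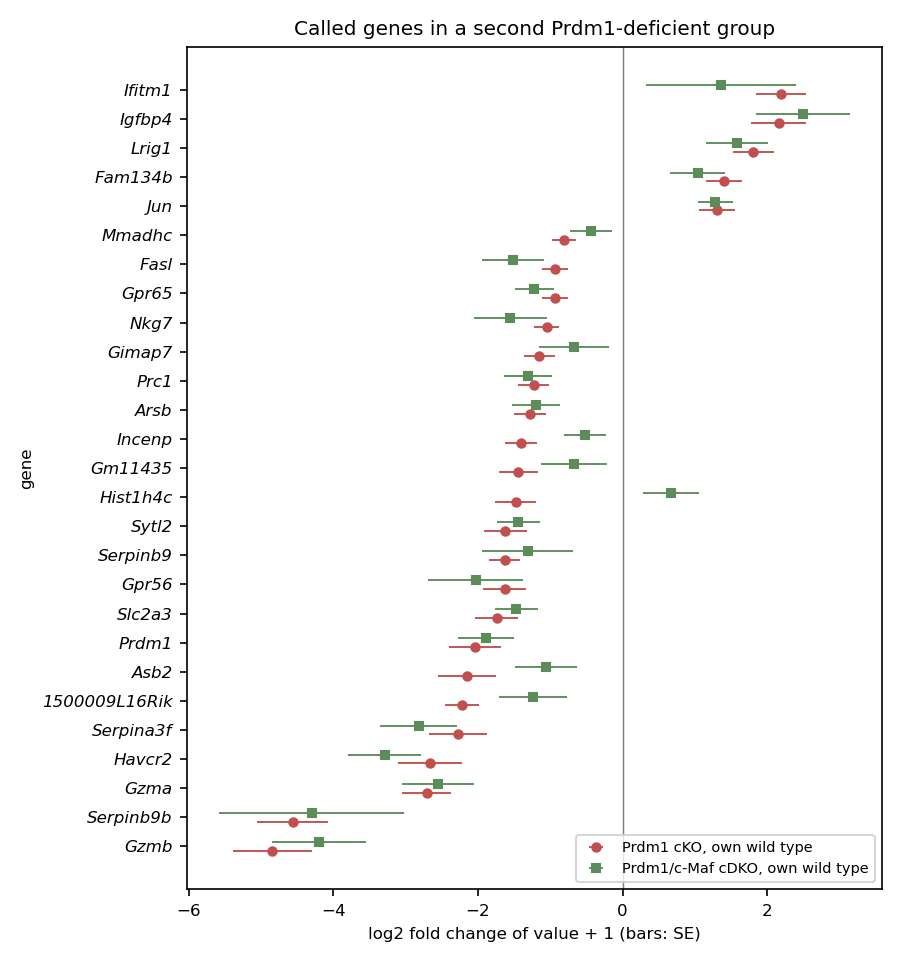
Log2 fold changes with their SE (whiskers) of called genes in the Prdm1 cKO against its 7 adjacent wild-type libraries (red circles) and in the Prdm1/c-Maf cDKO against its own 5 (green squares). Gzmb, at -4.84 and -4.19, has the most negative value in the first; Hist1h4c is the gene whose values have opposite signs. Genes not tested in the second comparison, and Gzmd and Gzme, listed at 0 in the Prdm1 cKO, are left out.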

How the data were processed

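RNA-seq values were taken from 1 deposited table of 23366 gene symbols in 25 libraries. Its values are the authors' normalised expression signal, deposited without a stated unit; they are not counts, so count models were not used and depth is unknown. TopHat, RSEM and DESeq on mm9 are named in the submitters' processing notes, without role or order. Columns carry a library code and genotype but no replicate number, so libraries were assigned to groups, not to single samples. Genes with a value of at least 1 in 3 or more of the 10 columns were tested on log2(value + 1) with limma 3.58.1 (trend and robust, R 4.3.3), 3 Prdm1 cKO against 7 adjacent wild-type libraries, with Benjamini-Hochberg adjustment over 11480 genes. Prdm1 was tested by exact permutation. Simulated data were made for this comparison of 11480 genes. Of 200 genes changed by 1, 2 and 4 on the log2 scale, limma recovered 45.5%, 87.5% and 99%. It also made 11, 13 and 9 false calls at these sizes. Whether these rates hold for the deposited values, where macrophage transcripts were more abundant in the Prdm1 cKO, was not tested. Group members, 31 gene lists (21 T cell, 10 marker) and tests were chosen with earlier results of these data known. Named genes are Prdm1, the 15 most lowered called genes, the 15 most raised outside and 8 most raised inside the macrophage class (filled with non-overlapping genes), called list members and preset anchor genes; any other is said to be chosen after its values were seen or completes a count; 1 anchor gene is not reported here. Alternatives covered pseudocount, filter, scaling, libraries, covariate and variance model. Promoters are RefSeq windows of GRCm38.p6, 250 bases upstream and 50 downstream; transcripts are GENCODE M21. Tables and figures were made with Python 3.11.15, pandas 2.3.3 and matplotlib 3.10.9.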

Additional observations from a re-analysis of the deposited data

Results flagged for a closer look

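2 wild-type values stood far from the other 6 of their group among the 80 genes screened, by Dixon's ratio of the gap to the range at its 95% critical value. Chance alone gives such a result for about 1 in 20 genes, a larger share than the 2 of 80 found here. Both belonged to library A3: Serpinb9b was 6.22 there against 26.76 to 49.26 in the others, and Tigit was 116.6 against 216.94 to 295.35.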

How the results depend on the processing

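Against 9 higher and 24 lower genes, counts of higher genes were 4 with a pseudocount of 0.1, 1 with no filter, 3 with a minimum of 10, 196 with all 25 libraries in 1 fit, 19 with the column run added, 1 with the macrophage score as covariate, 3 without trend and robust fitting, 3 with array weights and 2 without A11 and A12. Counts of lower genes were 13 with a pseudocount of 10, 6 with no filter, 15 with CD3 scaling, 245 with all 25 libraries, 40 with the column run, 5 with the macrophage score, 9 without trend, 10 with array weights and 7 without A11 and A12. Outside the macrophage class (8 higher, 24 lower) the higher counts at those settings were 3, 0, 2, 172, 17, 0, 2, 2 and 1, and the lower ones 13, 6, 15, 244, 40, 5, 9, 10 and 7. Correlation limits of 0.5 and 0.9, the marker list alone, and r over the 7 adjacent libraries gave 6 to 8 higher and 24 lower. Leaving out 1 library in turn gave 2 to 21 higher and 4 to 49 lower genes, or 1 to 19 and 4 to 49 outside the class; apart from A5, A6 and A9, leaving out A4, A8, A11 or A12 gave 4, 3, 3 and 3 higher genes, and leaving out A7, A8, A11 or A12 gave 10, 10, 12 and 9 lower ones. The Prdm1 difference ranged from -2.430 to -1.421 over these. Fewer libraries were left in each such fit; otherwise the cause was not tested. Among the named genes, signs reversed for 3 that were not called: Cd3e (0.07 with CD3 scaling, 0.06 with the macrophage score), Eomes (0.14 and 0.39 there, 0.00 without A12, 0.26 without A9, 0.10 without A11 and A12) and Il2 (0.04 without A4, 0.07 without A6); leaving out 1 library gave -0.41 to 0.26 for Eomes and -0.49 to 0.07 for Il2. CD3 scaling moved the median of all genes from -0.02 to 0.22. No paired analysis was possible because the columns carry no replicate number. Alternatives that drop A11 and A12 or use r over the adjacent libraries were chosen after seeing the data.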

Other observations

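Further T cell lists had no called member apart from Prdm1 itself. The 14 killer cell lectin-like receptor genes had a median log2 fold change of -0.63 (-0.42 with CD3 scaling). At limma's unadjusted p under 0.05, 0 were higher and 5 lower, against 5.44% and 7.74% of all genes. The 15 tissue residency genes had a median of 0.12, the 29 interferon-stimulated genes 0.07 and the 15 Dusp and Sprouty genes 0.08. Medians were -0.25 for 13 co-stimulatory receptors, -0.13 for 30 nuclear oxidative phosphorylation genes, -0.13 for 13 Bcl2 family genes and -0.22 for 17 genes of the Prdm family and Blimp-1 partners, and CD3 scaling turned these 4 to 0.03, 0.16, 0.14 and 0.06. Gzmg, chosen after its values were seen, was listed at 0 in all 3 Prdm1 cKO libraries and was 0.12 to 18.65 in the wild type, with limma's adjusted p = 0.42. Egr2, an activation-induced zinc finger factor chosen in the same way, was 2.07 to 9.05 in the wild type and 11.39, 12.22 and 28.56 in A5, A6 and A9, above all 7 wild-type values, with limma's adjusted p = 0.118. Itgb7, the beta chain of a gut-homing integrin, was 47.99 to 73.29 against 81.47, 121.66 and 111.72, with limma's adjusted p = 0.0984. Mcm2, a replicative helicase subunit, was 42.02 to 67.09 against 32.34, 32.19 and 33.01, with limma's adjusted p = 0.0695. Zap70, the kinase next to the T cell receptor, was 70.82 to 130.34 against 58.31, 55.06 and 58.03, with limma's adjusted p = 0.137. These 3 were also chosen after their values were seen.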
